A study of Mus musculus with 8 samples.

Results

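The genes described here encode the liver enzymes that break down amino acids and turn their nitrogen into urea. The set holds 38 genes, taken by symbol from a table of read counts of mouse liver RNA, and all 38 were found among its 22155 genes. RNA sequencing had been done on 8 liver libraries, labelled as 4 groups with 2 libraries each. Yap controls were livers of mice with both copies of Yap1 floxed that had received an AAV8 virus expressing GFP, while in Yap1 knockouts AAV8-iCre had deleted that gene from the hepatocytes. Ctgf controls were livers of Ctgf floxed homozygotes, and Ctgf knockouts were livers of conditional knockouts (Cre driver not given in the sources used here). Sample labels give C57BL/6 mice aged 8 to 10 weeks in every group, while the design text gives 8 weeks. All groups, controls included, had also been fed a Lieber-DeCarli liquid diet with 1% ethanol for 2 days and 2% ethanol for 10 days. Each mouse had further received a single intraperitoneal dose of 1 µl/g carbon tetrachloride (CCl4), a hepatocyte toxin, 2 days before the liver was taken, so no group shows an untreated liver. Whether the libraries of a group came from separate animals is not stated, so each p-value measures the spread between libraries, which may be technical.

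Amino acid catabolism in the liver removes the amino group of each amino acid by transamination or deamination and sends the carbon skeleton to glucose, ketone bodies or the citric acid cycle. The released ammonia enters the urea cycle, in which carbamoyl phosphate and ornithine form citrulline, citrulline and aspartate form argininosuccinate, and arginase splits arginine into urea and ornithine. Most of these enzymes are made in hepatocytes, many are denser in periportal cells, and their transcription responds to glucagon, glucocorticoids and feeding. Yap1 encodes a coactivator of the Hippo pathway that works with TEAD transcription factors, and Ctgf is a secreted matrix protein and a known target of it.

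The libraries held 26904021 to 33488609 counts. Levels are given as counts scaled to the TMM-adjusted size of each library (CPM). Yap1 stood at 107 and 76.1 CPM in the Yap controls and 31.0 and 32.5 in the Yap1 knockouts, in which other cell types still carry the gene. Ctgf was 28.8 and 32.1 CPM in Ctgf controls but 8.02 and 49.2 in the pair labelled as its knockouts 1 and 2. By its Ctgf level, the library labelled Ctgf knockout 2 thus goes against its label. With the Cre driver not given, the cells meant to lose Ctgf are unknown, and the cause of that level was not tested. In the Yap line Ctgf was at 96.8 and 50.1 CPM in controls and 406 and 324 in the Yap1 knockouts, higher without overlap (edgeR log2 fold change 2.31, SE 0.72, adjusted p 0.25, DESeq2 adjusted p 0.0103). A second library stood apart. The 20 exocrine pancreas markers summed to 18227 CPM in Yap control 2 and to 3.51 to 9.78 CPM elsewhere, with Clps and Try4 at 0 outside that library (3 counts are 0.0830 to 0.123 CPM). The results most touched by either library are given with and without it. The 11 hepatocyte markers in the table, Alb among them, summed to 63988 to 128621 CPM over the 8 libraries.

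The 38 enzymes spanned a wide range of levels. Genes were compared roughly on the scale of CPM per kilobase of exon. The length counts every annotated exon of a gene, so it can exceed that of the transcripts present. On this scale the methionine adenosyltransferase Mat1a had the highest mean over the 8 libraries, 940.0, with a range of 424 to 1599. Arg1, the arginase that releases urea, followed at 656, the tyrosine aminotransferase Tat at 472, and Cps1, which makes carbamoyl phosphate in the first step of the urea cycle, at 306. Mat1a exceeded Arg1 in 8 of 8 libraries, while Arg1 exceeded Tat in 6 of 8. The lowest means were those of Prodh, proline dehydrogenase, at 4.09, of Otc, ornithine transcarbamylase, at 7.31, and of Amt, the aminomethyltransferase of glycine cleavage, at 9.69. The ranges of all 37 pairs of neighbours in this order overlapped. The order held in 8 of 8 libraries for 3 pairs, and the other neighbours did not differ beyond their spread. Bhmt, which remethylates homocysteine with betaine, varied most between libraries, by 61.3-fold from lowest to highest, and Amdhd1, the imidazolonepropionase of histidine breakdown, varied least, by 1.22-fold. Summed in CPM, the 38 genes reached 9162 and 14648 in the Yap controls, 16415 and 19248 in the Yap1 knockouts, 9367 and 9406 in the Ctgf controls and 10072 and 11169 in the Ctgf knockouts.

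**Figure D1:**
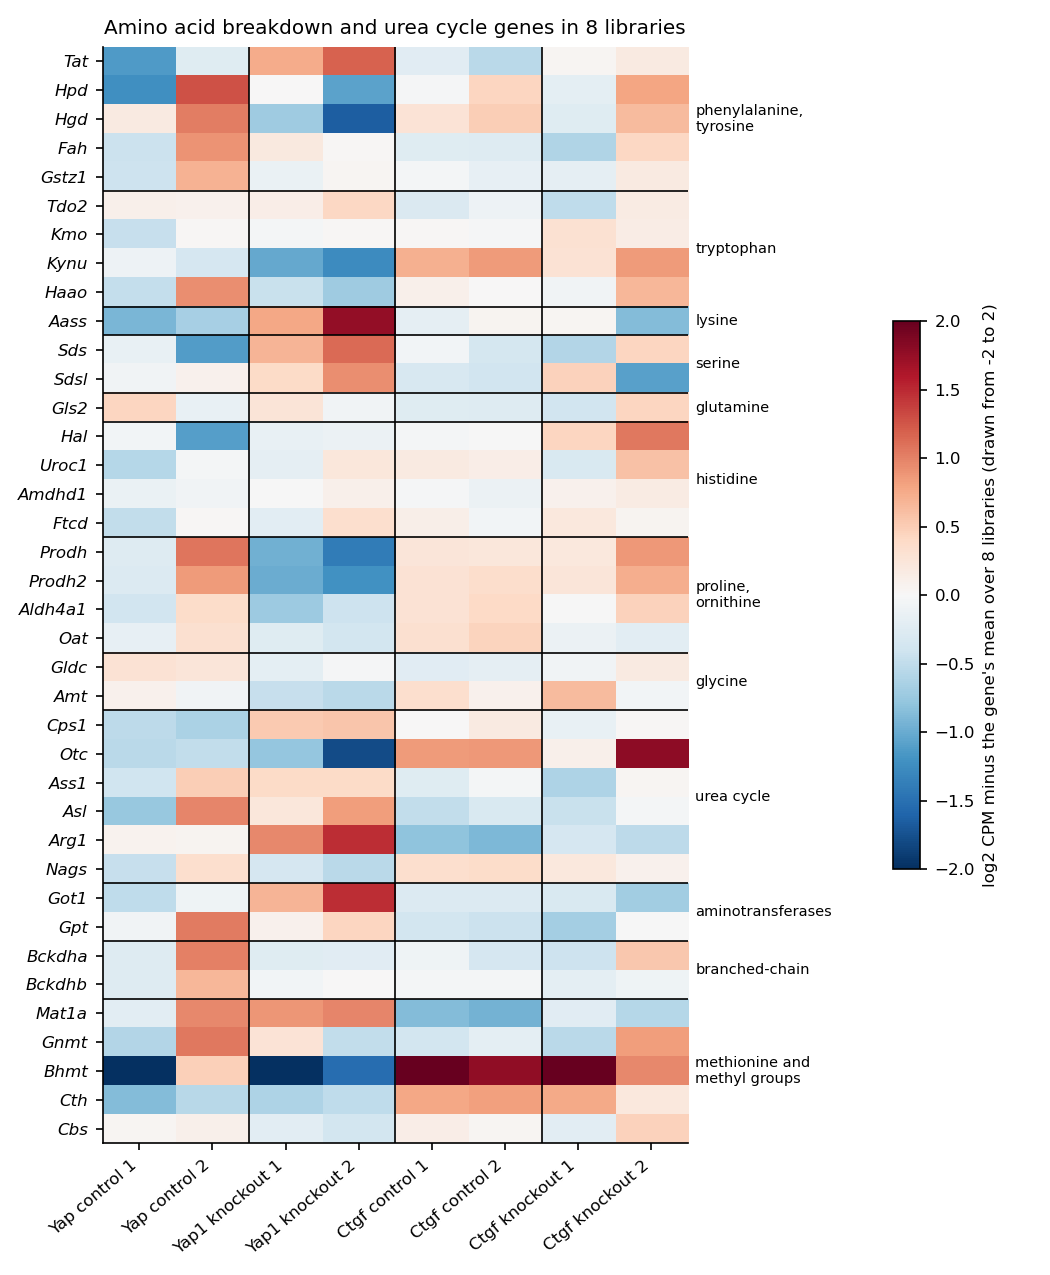
The level of each of the 38 genes in each of the 8 libraries, as log2 CPM minus the gene's mean over the 8 libraries, with the colour scale drawn from -2 to 2 and the genes grouped by pathway. Tat, Aass, Arg1 and Got1 are darkest red in the Yap1 knockouts, Prodh, Prodh2, Hgd and Kynu are blue there, and Bhmt is at the bottom of the scale in Yap control 1 and above its mean in Yap control 2.

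Deletion of Yap1 in hepatocytes was the first contrast of the design, and the set did not move one way in it. Cps1, Arg1, Tat, Aass, Got1 and Sds were higher in the Yap1 knockouts, 2.17-fold to 4.37-fold, and Hgd, Prodh, Prodh2 and Kynu were lower, 1.90-fold to 3.41-fold, but none of the 38 genes passed edgeR's quasi-likelihood F test with Benjamini-Hochberg adjustment over 13999 genes, with the smallest adjusted p of 0.12 for Aass. That count of 0 stands against 4 of all genes tested (0.0286%), 3 higher (0.0214%) and 1 lower (0.00714%). DESeq2, run on the same genes, called those 10 members, 6 higher and 4 lower, against 270 genes higher (1.97%) and 239 lower (1.74%) of 13727. At an unadjusted p below 0.05 in edgeR, the same counts of 6 higher and 4 lower (26.3%) stood beside 13.8% of all genes, 6.64% higher and 7.14% lower. By the plain ordering of the libraries, both knockouts lay above both controls for 9 members (23.7%, against 23.6% of all genes) and below both for 10 (26.3%, against 20.8%), which are shares near the background. The median log2 fold change was -0.28 over the members and -0.0046 over all genes, with 17 members positive and 21 negative. The median size of the change, sign ignored, was 0.47 for members and 0.35 for all genes. In bulk liver, fewer cells of a type and less RNA per cell cannot be told apart.

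**Figure D2:**
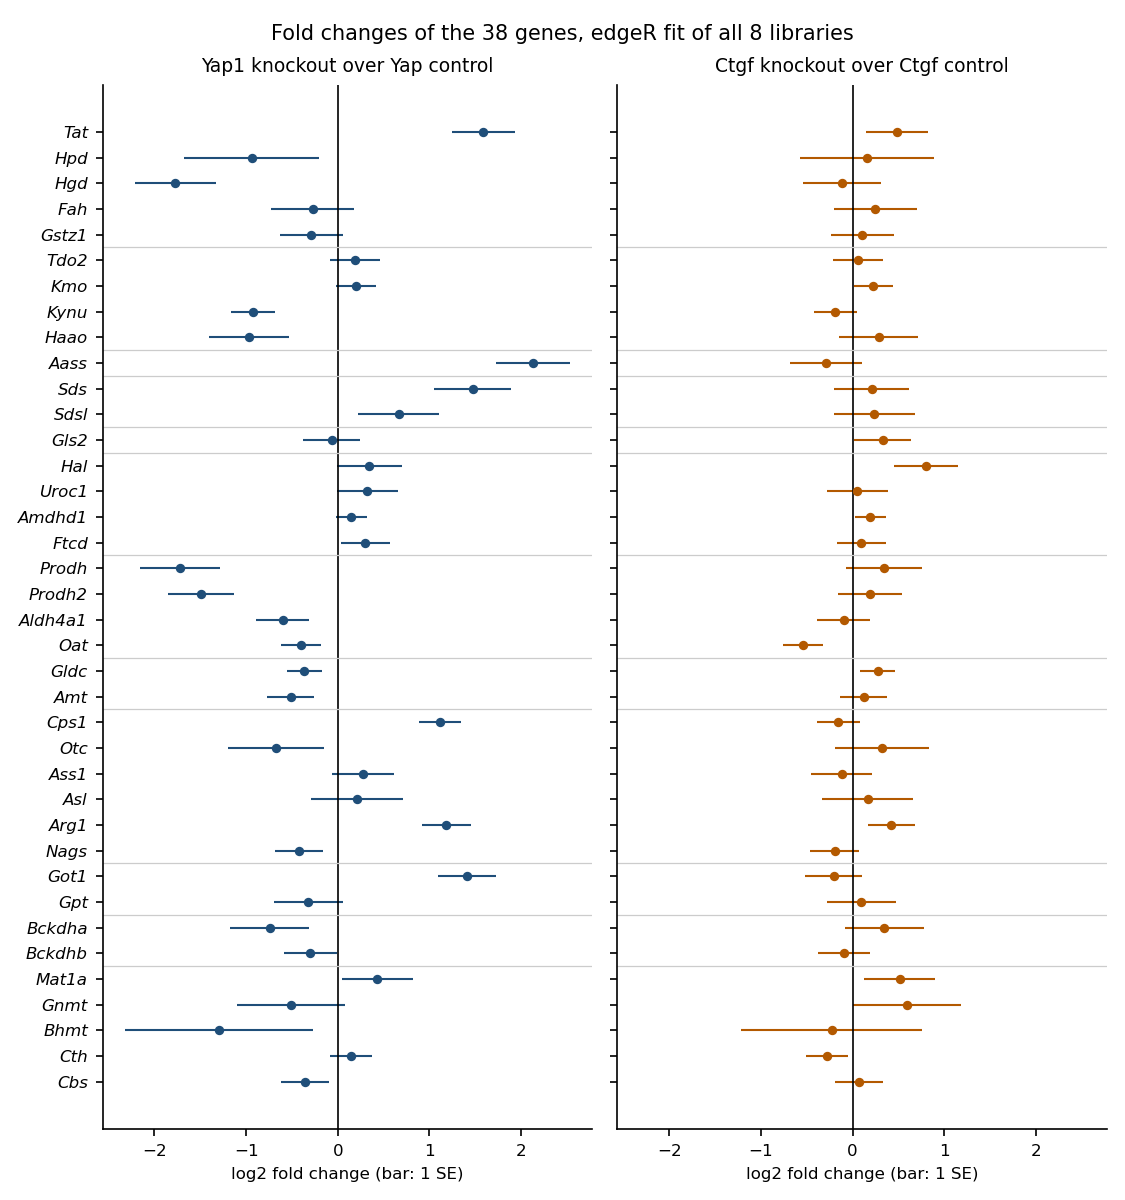
The log2 fold change of each of the 38 genes with a bar of 1 standard error, for Yap1 knockout over Yap control (left) and Ctgf knockout over Ctgf control (right), from a single edgeR fit of the 8 libraries, with lines between pathways. In the Yap1 comparison Aass is farthest to the right at 2.13 and Hgd farthest to the left at -1.77, while in the Ctgf comparison all 38 lie between -0.54 and 0.80.

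The urea cycle genes split. Cps1 (chr1:67123026-67231259, GRCm38) stood at 1145 and 1059 CPM in the Yap controls, 2364 and 2408 in the Yap1 knockouts, 1645 and 1855 in the Ctgf controls and 1476 and 1665 in the Ctgf knockouts. The Yap1 knockout libraries were the 2 highest of the 8 and differed from each other by little, and Cps1 had the smallest standard error among the 6 higher genes: its log2 fold change was 1.11 (SE 0.23, edgeR adjusted p 0.139, DESeq2 adjusted p 1.32e-05). Arg1 (chr10:24915221-24927484) stood at 1299 and 1286 CPM in the Yap controls, 2406 and 3474 in the Yap1 knockouts, 714 and 666 in the Ctgf controls and 988 and 863 in the Ctgf knockouts. Both knockout libraries were again above every other library, and the log2 fold change was 1.19 (SE 0.26, edgeR adjusted p 0.153, DESeq2 adjusted p 3.84e-04). Arg1 is also made by macrophages, whose 12 markers summed to 1247 and 1334 CPM in the Yap1 knockouts, where the Yap controls had 1084 and 1462, with 4 of 12 positive. Their part in the Arg1 level was not tested.

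The urea cycle steps between Cps1 and Arg1 gave other values. Otc, which joins carbamoyl phosphate to ornithine, stood at 16.4 and 16.8 CPM in the Yap controls and 13.9 and 6.89 in the Yap1 knockouts, lower in both knockouts, with a log2 fold change of -0.68 (SE 0.52). Ass1, which makes argininosuccinate, stood at 186 and 343 CPM in the Yap controls and 321 and 321 in the Yap1 knockouts. Asl, which splits it into arginine and fumarate, stood at 112 and 370.5 CPM in controls and 221 and 338 in knockouts. For both genes the knockouts lay between the controls, with log2 fold changes of 0.28 (SE 0.34) and 0.21 (SE 0.50). Nags, which makes the allosteric activator of Cps1, stood at 52.0 and 90.1 CPM in the Yap controls and 56.5 and 49.4 in the Yap1 knockouts, which overlap.

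Aass, the bifunctional enzyme that starts lysine breakdown through saccharopine, had the largest fold change of the set. It (chr6:23072173-23132986) stood at 75.9 and 89.9 CPM in the Yap controls, 244 and 481 in the Yap1 knockouts, 127 and 149 in the Ctgf controls and 147 and 78.1 in the Ctgf knockouts. The Yap1 knockouts were the 2 highest libraries, although knockout 2 was nearly double knockout 1, and the log2 fold change was 2.13 (SE 0.40, 4.37-fold, edgeR adjusted p 0.12, DESeq2 adjusted p 2.71e-05). Tat (chr8:109990437-109999803), which takes the amino group off tyrosine and is induced by glucocorticoids and glucagon, stood at 465 and 862 CPM in the Yap controls, 1696 and 2296 in the Yap1 knockouts, 867 and 698 in the Ctgf controls and 1045 and 1145 in the Ctgf knockouts. The groups did not overlap, and the log2 fold change was 1.59 (SE 0.35, 3.01-fold, edgeR adjusted p 0.153, DESeq2 adjusted p 5.66e-04).

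Got1, the cytosolic aspartate aminotransferase, stood at 205 and 275 CPM in the Yap controls, 466 and 810.3 in the Yap1 knockouts, 240.5 and 241 in the Ctgf controls and 238 and 179.9 in the Ctgf knockouts. It (chr19:43499752-43524605) was higher in the Yap1 knockouts than in any other library, by 1.41 on the log2 scale (SE 0.32, edgeR adjusted p 0.154, DESeq2 adjusted p 0.00195). Gpt, the alanine aminotransferase, stood at 57.5 and 124 CPM in the Yap controls and 63.9 and 81.5 in the Yap1 knockouts, so that the knockouts lay between the controls. The difference between Got1 and Gpt was not tested. Sds, the serine dehydratase that yields pyruvate, stood at 116 and 59.5 CPM in the Yap controls, 206 and 281 in the Yap1 knockouts, 124 and 101 in the Ctgf controls and 86.1 and 173 in the Ctgf knockouts. It had a log2 fold change of 1.47 (SE 0.42, edgeR adjusted p 0.224, DESeq2 adjusted p 0.0195), and the groups did not overlap. Its relative Sdsl, a neighbour on chromosome 5 with 3715 bases between the genes, stood at 46.1 and 51.5 CPM in the Yap controls and 62.6 and 91.9 in the Yap1 knockouts, also without overlap, with a log2 fold change of 0.66 (SE 0.44). Sds shares 360 bases of exon with Plbd2 on the other strand, and since the strand setting of the counting is not given, reads of the pair may not have been told apart. Plbd2 itself had a log2 fold change of -0.26.

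**Figure D3:**
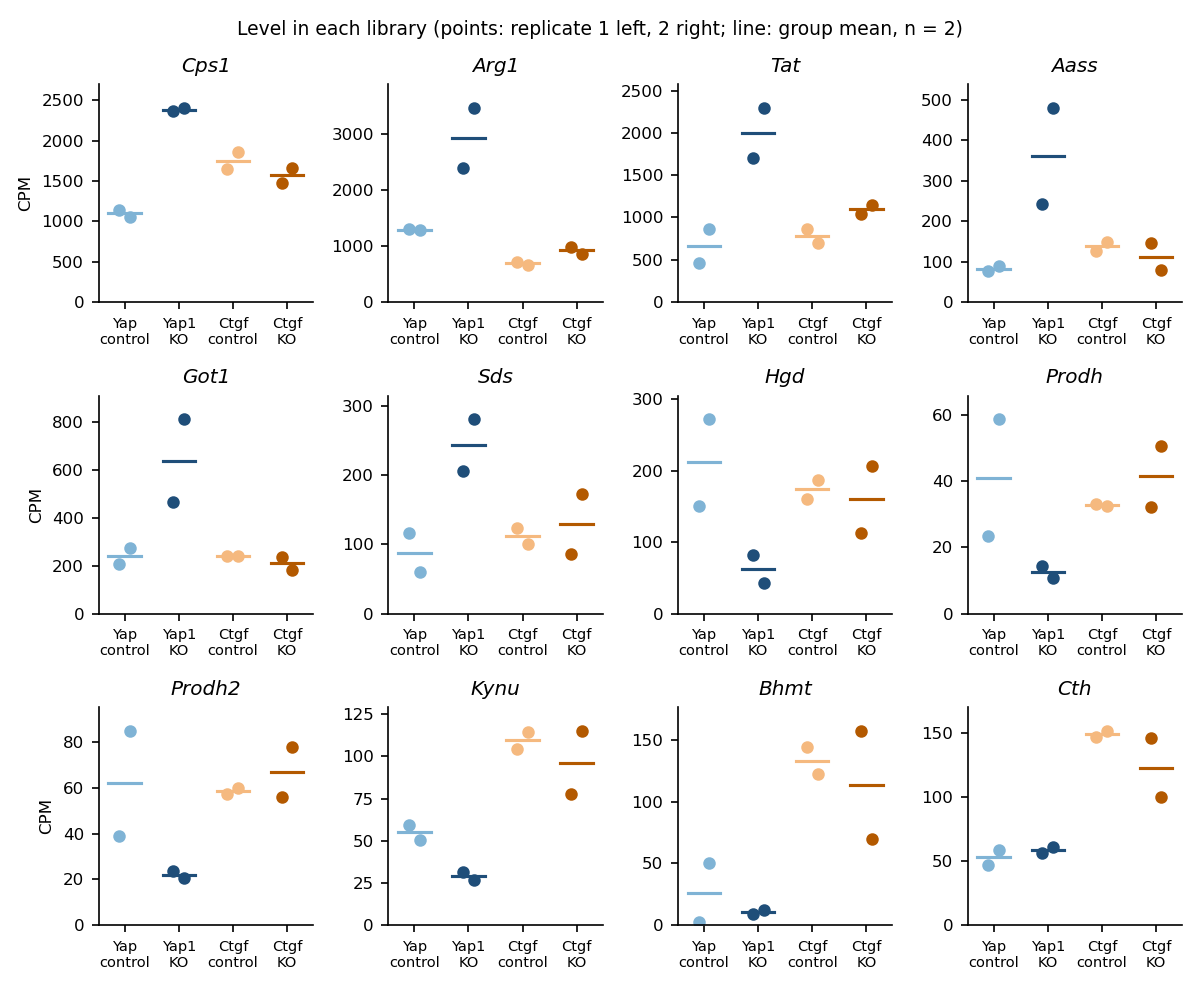
CPM in each library for 12 of the genes, with replicate 1 on the left and replicate 2 on the right of each pair of points and a line at the group mean (n = 2), each axis starting at 0. In Cps1, Arg1, Tat, Aass, Got1 and Sds both Yap1 knockout points lie above all others, in Hgd, Prodh, Prodh2 and Kynu both lie below all others, and in Bhmt and Cth both Yap groups lie below both Ctgf groups.

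Among the lower genes were those of proline and ornithine breakdown. All 4 lay lower in both Yap1 knockouts than in both controls, as did 20.8% of all genes, with a median log2 fold change of -1.05, but 2 of them, Aldh4a1 and Oat, were only narrowly separated and none passed edgeR's adjusted threshold. Prodh (chr16:18060357-18090203), which oxidises proline in the mitochondrion, stood at 23.4 and 58.6 CPM in the Yap controls, 14.2 and 10.6 in the Yap1 knockouts, 33.0 and 32.4 in the Ctgf controls and 32.2 and 50.6 in the Ctgf knockouts. It had a log2 fold change of -1.72 (SE 0.43, edgeR adjusted p 0.189, DESeq2 adjusted p 0.00542). Prodh2 (chr7:30493622-30513402), which oxidises hydroxyproline, a product of collagen turnover, stood at 39.0 and 85.0 CPM in the Yap controls, 23.7 and 20.3 in the Yap1 knockouts, 57.4 and 60.1 in the Ctgf controls and 55.8 and 77.9 in the Ctgf knockouts. It had a log2 fold change of -1.49 (SE 0.36, edgeR adjusted p 0.173, DESeq2 adjusted p 0.00586). The pair ran alike across the 8 libraries: in each, Yap control 2 was highest and the Yap1 knockouts were the 2 lowest.

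Aldh4a1, the mitochondrial dehydrogenase that takes over the products of Prodh and Prodh2, stood at 44.99 and 76.1 CPM in the Yap controls and 35.7 and 44.2 in the Yap1 knockouts (log2 fold change -0.60, SE 0.29). Knockout 2 lay just under control 1, so the separation of these groups is narrow. Oat, ornithine aminotransferase, stood at 117 and 163 CPM in controls and 111 and 101 in knockouts, likewise a narrow separation (log2 fold change -0.40, SE 0.22). Both glycine cleavage members also lay lower without overlap: Gldc, the decarboxylase, at 147 and 142 CPM in the Yap controls and 105 and 119 in the Yap1 knockouts. For Amt the values were 24.4 and 21.7 CPM in controls and 16.6 and 15.7 in knockouts. Their log2 fold changes were -0.37 (SE 0.19) and -0.52 (SE 0.26).

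Tyrosine breakdown did not move as a unit, since Tat was higher while a later enzyme was lower. Hgd (chr16:37580153-37632020), the homogentisate dioxygenase whose loss causes alkaptonuria in humans, stood at 151 and 272 CPM in the Yap controls, 81.7 and 42.4 in the Yap1 knockouts, 161 and 187 in the Ctgf controls and 113 and 207 in the Ctgf knockouts. The Yap1 knockouts were the 2 lowest libraries, with a log2 fold change of -1.77 (SE 0.44, 3.41-fold lower, edgeR adjusted p 0.187, DESeq2 adjusted p 0.00327). Hpd, which makes homogentisate, stood at 78.0 and 441 CPM in the Yap controls and 184 and 86.9 in the Yap1 knockouts. Its controls differed by 5.66-fold, and the knockouts lay between them. Gstz1, the maleylacetoacetate isomerase, and Fah, which ends the pathway, overlapped too, with log2 fold changes of -0.29 (SE 0.35) and -0.27 (SE 0.45).

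In the kynurenine pathway of tryptophan, Kynu, kynureninase, was the member that stood out. Kynu (chr2:43555329-43682715) stood at 59.3 and 50.6 CPM in the Yap controls, 31.4 and 26.6 in the Yap1 knockouts, 105 and 115 in the Ctgf controls and 77.4 and 115 in the Ctgf knockouts. The Yap1 knockouts were the 2 lowest libraries, with a log2 fold change of -0.92 (SE 0.24, edgeR adjusted p 0.197, DESeq2 adjusted p 0.0305). Tdo2, the dioxygenase that opens the pathway, stood at 603 and 592 CPM in the Yap controls and 614 and 743 in the Yap1 knockouts, higher without overlap but by only 0.18 on the log2 scale (SE 0.27). Kmo, kynurenine monooxygenase, and Haao, which follows Kynu, overlapped between the groups, with log2 fold changes of 0.20 (SE 0.22) and -0.97 (SE 0.44). The 4 histidine genes, Hal, Uroc1, Amdhd1 and Ftcd, were all slightly positive, from 0.15 to 0.34 on the log2 scale, and none reached an unadjusted p of 0.05.

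The branched-chain and methionine members gave no separation except in Cbs. Bckdha and Bckdhb, the paired subunits of the branched-chain ketoacid dehydrogenase, stood at 93.5 and 94.4 and at 41.97 and 43.6 CPM in the Yap1 knockouts. Their controls stood at 92.9 and 222 CPM for Bckdha and 36.3 and 68.9 for Bckdhb, so that both subunits were highest in Yap control 2. Cbs, which starts transsulfuration, stood at 439 and 457 CPM in the Yap controls and 368 and 330.2 in the Yap1 knockouts (log2 fold change -0.36, SE 0.26). Mat1a stood at 2456 and 5519 CPM in the Yap controls and 5221 and 5545 in the Yap1 knockouts, with Yap control 1 the low library of the 4. Gnmt, which uses up S-adenosylmethionine, stood at 102 and 316 CPM in controls and 185 and 109 in knockouts, and Cth, the lyase that completes transsulfuration, at 47.3 and 58.7 CPM in controls and 56.3 and 60.7 in knockouts. Gls2, the liver form of glutaminase, stood at 128 and 86.5 CPM in the Yap controls and 114 and 90.5 in the Yap1 knockouts and had the log2 fold change closest to 0 in the set, -0.07 (SE 0.31).

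For promoter sequences, genes were taken by the smallest edgeR p in the Yap1 comparison, 3 in each direction, among named genes with a RefSeq promoter entry. Of these, Prodh was left out without replacement, since its stretch overlaps an annotated transcript. The stretches upstream of the remaining 3 higher genes and 2 lower ones are shown. They end before the transcript start, come from the RefSeq table of GRCm38.p6 and read 5′ to 3′ on the strand of the gene: Aass chr6:23132987-23133236(-), Tat chr8:109990186-109990435(+), Got1 chr19:43524606-43524855(-), Prodh2 chr7:30493408-30493621(+) and Hgd chr16:37579903-37580152(+). Capitals mark matches to the motifs searched.
Aass: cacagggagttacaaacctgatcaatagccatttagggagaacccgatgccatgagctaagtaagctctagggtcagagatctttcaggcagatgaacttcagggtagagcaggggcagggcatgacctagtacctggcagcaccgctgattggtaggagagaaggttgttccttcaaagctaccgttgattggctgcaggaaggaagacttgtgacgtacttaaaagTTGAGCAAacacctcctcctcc
Tat: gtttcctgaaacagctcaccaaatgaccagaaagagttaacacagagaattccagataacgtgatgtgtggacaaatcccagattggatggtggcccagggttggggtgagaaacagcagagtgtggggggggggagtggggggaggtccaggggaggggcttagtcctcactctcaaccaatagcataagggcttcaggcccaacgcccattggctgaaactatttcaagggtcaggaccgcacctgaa
Got1: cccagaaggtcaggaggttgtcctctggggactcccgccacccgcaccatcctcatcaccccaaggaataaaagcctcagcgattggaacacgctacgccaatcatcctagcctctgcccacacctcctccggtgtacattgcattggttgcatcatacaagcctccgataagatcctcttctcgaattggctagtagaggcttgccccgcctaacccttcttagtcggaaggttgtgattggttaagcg
Prodh2: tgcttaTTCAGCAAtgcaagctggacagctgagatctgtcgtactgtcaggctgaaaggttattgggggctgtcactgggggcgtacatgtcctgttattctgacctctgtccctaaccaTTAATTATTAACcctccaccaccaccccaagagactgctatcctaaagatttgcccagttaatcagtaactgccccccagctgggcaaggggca
Hgd: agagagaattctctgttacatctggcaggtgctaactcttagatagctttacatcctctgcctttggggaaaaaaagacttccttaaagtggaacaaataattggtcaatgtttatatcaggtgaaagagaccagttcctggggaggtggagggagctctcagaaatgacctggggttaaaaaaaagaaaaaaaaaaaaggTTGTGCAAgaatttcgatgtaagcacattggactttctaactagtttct
The motifs, read on both strands of 250 bases upstream, were TEAD (GGAATG), C/EBP (TTGCNNAA), the cyclic AMP response element (TGACGTCA), the glucocorticoid receptor (ACANNNTGT), HNF4 (CAAAGTNCA) and HNF1 (GTTAAT, then 2 free bases, then TTAA). Capitals in Aass and Hgd mark a C/EBP match, and those in Prodh2 mark a C/EBP and an HNF1 match that do not overlap. The sequences of Tat and Got1 hold none of the 6. Of the 38 genes, 28 had an entry, giving 30 promoters. TEAD letters were in 5 of those 30 (16.7%, against 12.6% of 32851 promoters), in Fah, Gldc, Oat, Prodh and Tdo2, and C/EBP letters in 4 (13.3%, against 9.6%), in Aass, Hal, Hgd and Prodh2. Glucocorticoid receptor letters were in 4 (13.3%, against 5.8%), in Bckdhb, Bhmt, Hal and Tdo2, HNF4 letters in Ftcd alone (3.3%, against 1.2%), HNF1 letters in Prodh2 alone (3.3%, against 0.1%), and the cyclic AMP response element in 0 (against 1.5%). C/EBP letters thus occur upstream of both higher and lower genes. A match describes letters in a window and not a bound site.

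How the set moved in the Yap1 comparison depended on which Yap control library it was set against. Against Yap control 1 as the only control, 25 of 38 members were positive, with a median log2 fold change of 0.32, whereas against Yap control 2, 13 were positive, with a median of -0.43. The sign was opposite for 16 members (42.1%, against 41.1% of all genes), positive in both for 11 and negative in both for 11. Bhmt stood at 2.57 and 50.2 CPM in the Yap controls and 8.89 and 12.5 in the Yap1 knockouts, and its log2 fold change was 2.05 against control 1 and -2.26 against control 2. Hpd went from 0.80 to -1.73, Asl from 1.32 to -0.44 and Mat1a from 1.13 to -0.06. By contrast, Cps1 gave 1.06 and 1.14, Arg1 1.18 and 1.16, Aass 2.26 and 1.98, and Kynu -1.03 and -0.83. Tat gave 2.10 and 1.18, Got1 1.64 and 1.19, Sds 1.07 and 2.01, Hgd -1.28 and -2.16, Prodh -0.91 and -2.27, and Prodh2 -0.82 and -1.98.

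**Figure D4:**
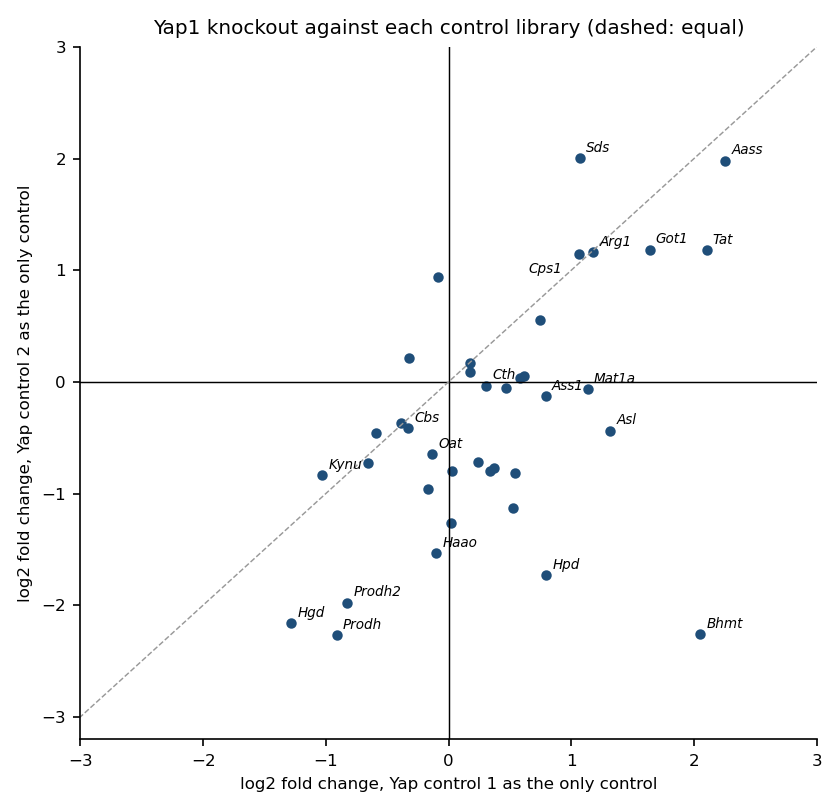
The log2 fold change of each of the 38 genes in the Yap1 knockouts with Yap control 1 as the only control (horizontal) and with Yap control 2 as the only control (vertical), with a dashed line where both are equal. Cps1, Arg1 and Aass lie near the line, Prodh and Prodh2 below it in the lower left, and Bhmt, Hpd and Asl in the lower right, where the sign is opposite.

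In edgeR the calls followed the same split. Without Yap control 1, 17 members passed (Aass, Aldh4a1, Arg1, Bckdha, Bckdhb, Bhmt, Cps1, Gstz1, Haao, Hal, Hgd, Nags, Oat, Prodh, Prodh2, Sds and Tat), but so did 3728 of 14457 genes (25.8%), while without Yap control 2 none passed, beside 40 of 14309 genes (0.280%). With Yap control 2 and the library labelled Ctgf knockout 2 both left out, 13 members passed, 10 of them higher and 3 lower (Aass, Arg1, Asl, Ass1, Bhmt, Cps1, Got1, Kynu, Mat1a, Prodh, Prodh2, Sds and Tat), beside 938 of 14261 genes (6.58%). In these fits the Yap control library that remains is the single control and is assumed to vary like the other groups. Cps1, Arg1, Aass, Tat, Sds, Prodh and Prodh2 passed in both of these fits with the same sign, while Bhmt passed in both with opposite signs.

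The spread between the Yap controls was wide for these genes. Yap control 2 was higher than Yap control 1 for 29 of 38 members, with a median log2 ratio of 0.53, and 13 (34.2%) differed by over 2-fold, against 23.7% of all genes. Bhmt was the extreme, and Hpd, Asl, Gnmt and Haao also had more than double the level in Yap control 2. The Yap1 knockouts differed by over 2-fold for 2 members (5.26%), the Ctgf controls for none, and the Ctgf knockouts for 6 (15.8%, against 13.2% of all genes). Markers of several cell types moved with the same libraries. Besides the pancreas markers, the hepatocyte markers summed to 65199.7 CPM in Yap control 1, 128621 in Yap control 2 and 85536 and 103957 in the Yap1 knockouts, with 3 of 11 positive in the Yap1 comparison. The 12 pericentral hepatocyte markers summed to 542 and 1459 CPM in the Yap controls and 509.9 and 591 in the Yap1 knockouts, with 2 of 12 positive, and the 10 periportal ones to 3555 and 3049.7 against 3066 and 3014, with 3 of 10 positive. The 12 neutrophil markers, with 11 positive, summed to 743 and 3298 CPM in the Yap controls and 5368 and 5092 in the Yap1 knockouts. These sums mainly follow 1 gene, Lcn2, at 579 and 3026 CPM in controls and 4269 and 4545 in knockouts. The 8 cholangiocyte markers, with 1 positive, summed to 404 and 1520.0 CPM in the Yap controls and 658 and 680.2 in the Yap1 knockouts. Most of each sum was Spp1, at 325 and 1357 CPM in controls and 533 and 566 in knockouts. The part of these cells in the members' values was not tested.

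**Figure D5:**
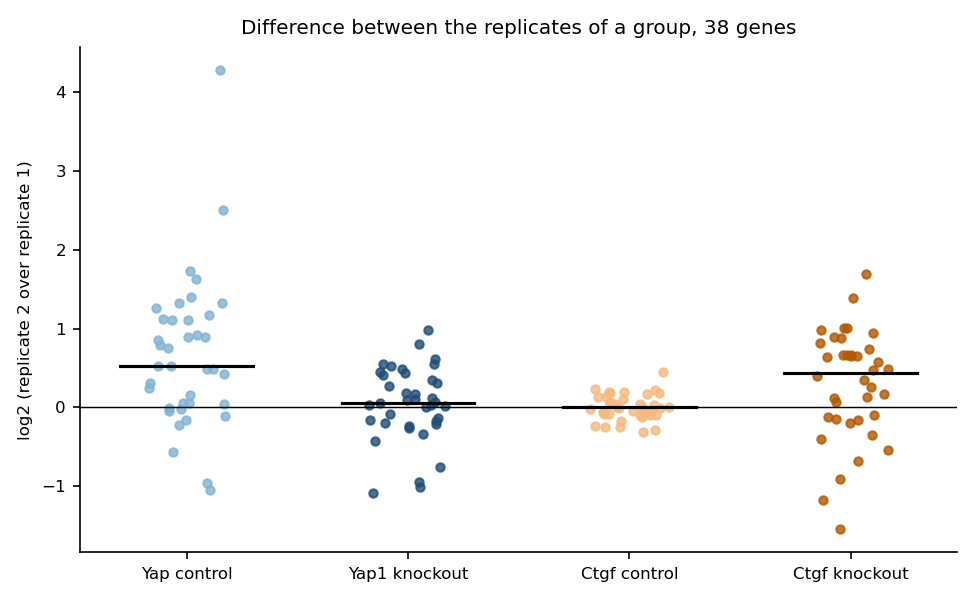
For each of the 38 genes, the log2 ratio of replicate 2 over replicate 1 within each group, with a bar at the median of the 38. The Yap control points have a median of 0.53 and reach 4.28 (Bhmt), the Ctgf knockout points have a median of 0.44, and the Ctgf control points stay between -0.31 and 0.45.

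Other genes of amino acid metabolism, 92 listed by pathway and 91 tested, showed the same absence of calls in the Yap1 comparison: 0 passed in edgeR, 7 higher and 11 lower reached an unadjusted p below 0.05 (19.8% in all, against 6.64% of all genes higher and 7.14% lower), and the median log2 fold change was 0.02. Against Yap control 1 alone 58 were positive, with a median of 0.18, and against Yap control 2 alone 32, with a median of -0.20. DESeq2 called 3 higher (Gpt2, Slc25a15 and Ppargc1a) and 3 lower (Csad, Shmt1 and Cebpa). Together these are 6.59% of the 91, against 1.97% of all genes called higher and 1.74% called lower. Csad, which decarboxylates cysteine sulfinate on the way to taurine, stood at 218 and 307 CPM in the Yap controls and 58.2 and 29.4 in the Yap1 knockouts (edgeR log2 fold change -2.58, SE 0.48, adjusted p 0.116). Shmt1, which interconverts serine and glycine, stood at 74.5 and 84.9 CPM in controls and 38.3 and 47.0 in knockouts (edgeR log2 fold change -0.90, SE 0.19, adjusted p 0.141). Higher by the smallest p were Ppargc1a, a coactivator of fasting metabolism, at 26.6 and 25.3 against 49.0 and 54.7 CPM, and Mut, methylmalonyl-CoA mutase, at 56.0 and 49.7 against 76.6 and 86.6. Of the 14 genes listed as urea cycle partners and amino acid transporters, 11 were positive, where 6949 of all 13999 genes were. Slc25a15, the mitochondrial ornithine carrier, stood at 252 and 235 CPM in the Yap controls and 371 and 454 in the Yap1 knockouts. Of the 20 genes of glycine, serine, methyl and sulfur metabolism, 13 were negative, where 7044 of all 13999 genes were. In edgeR 6 of them reached an unadjusted p below 0.05, all lower (30%, against 7.14% of all genes). In the other lists, 9 of 20 branched-chain genes were positive, as were 8 of 11 genes of aminotransferases, glutamate and glutamine. Positive too were 5 of 12 genes of phenylalanine, tyrosine and tryptophan, 1 of 4 of lysine and 5 of 10 regulators.

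The libraries labelled Ctgf knockout and the Ctgf controls made the other contrast. With 1 of the pair above both controls, Ctgf itself had a log2 fold change of -0.09 in it (SE 0.69, edgeR adjusted p 1). The contrast therefore compares labels, and bulk RNA cannot tell whether the targeted cells lost Ctgf in both libraries. The log2 fold changes of the 38 genes ran from -0.54 to 0.80. None passed in edgeR, and 0 of 13999 genes did (0%). At an unadjusted p below 0.05 there was 1 member, beside 1.98% of all genes, and DESeq2 called 0 members, 1 gene higher (0.00714%) and 3 lower (0.0214%). That member was Oat, at 163 and 179 CPM in Ctgf controls and 121 and 114 in the Ctgf knockouts, lower without overlap (edgeR log2 fold change -0.54, SE 0.22, adjusted p 1). Hal, the histidase that starts histidine breakdown, had the largest positive change, from 89.0 and 91.9 CPM in Ctgf controls to 123 and 191 in the Ctgf knockouts (edgeR log2 fold change 0.80, SE 0.35, adjusted p 1). Arg1, Tat and Gldc were also positive and lay higher without overlap, at 0.42, 0.48 and 0.27 on the log2 scale, with Gldc at 102 and 106 CPM in Ctgf controls and 114 and 137 in the Ctgf knockouts. In all, 7 members lay higher without overlap (18.4%, against 15.5% of all genes) and 5 lower (13.2%, against 16.8%), 26 were positive and 12 negative, and the median log2 fold change was 0.14, against 0.0064 for all genes.

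The lean towards positive was there with the library that goes against its label and not with the other. With Ctgf knockout 1 as the only knockout, 12 of 38 members were positive, with a median log2 fold change of -0.13. With the library labelled Ctgf knockout 2 as the only one, 28 were positive, with a median of 0.34, and the sign was opposite for 24 members (63.2%, against 51.8% of all genes). Otc, at 43.1 and 43.3 CPM in Ctgf controls and 25.5 and 82.2 in the Ctgf knockouts, had a log2 fold change of -0.76 with the first and 0.94 with the second. Sdsl, at 38.5 and 37.1 CPM in controls and 66.4 and 22.7 in knockouts, went from 0.81 to -0.72, and Aass from 0.09 to -0.80. Since their groups do not overlap, Hal and Oat had to keep their sign with either library, Hal at 0.45 and 1.09, Oat at -0.49 and -0.58. The hepatocyte markers summed to 81673 CPM in Ctgf knockout 1 and 116088 in the library labelled Ctgf knockout 2, and to 70658 and 63988 in the Ctgf controls, with 11 of 11 positive. In Ctgf knockout 1 only Fga and Fgb lay above both controls, Fga at 22444 CPM against 12399 and 9657, Fgb at 14553 against 8493 and 6714. Most of the others lay below both controls there, Alb among them at 33585 CPM against 37334 and 35393. The part of hepatocyte content in the members' values was not tested. Among the 91 other genes of amino acid metabolism, 69 were positive with a median of 0.16 (0.05 with Ctgf knockout 1 as the only knockout and 0.22 with the library labelled Ctgf knockout 2), none passed, and Ppargc1a was lower by the smallest p, at 34.1 and 44.98 CPM in Ctgf controls and 19.4 and 23.9 in the Ctgf knockouts (edgeR log2 fold change -0.87, adjusted p 1). Kyat1, a kynurenine aminotransferase, stood at 53.9 and 41.5 CPM in controls and 79.4 and 65.7 in knockouts, and Slc38a3, a glutamine transporter, at 364 and 343 CPM in controls and 422 and 666 in knockouts.

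The difference between the Yap1 and Ctgf effects was tested directly in edgeR, and it passed for none of the 38 genes and for 0 of 13999 in all (0%). At an unadjusted p below 0.05, 3 members had a higher effect in the Yap1 line (Aass, Cps1 and Got1) and 4 a lower one (Prodh, Prodh2, Hgd and Gldc), beside 8.87% of all genes, 4.68% higher and 4.19% lower. The differences were largest for Aass, at 2.42 on the log2 scale (SE 0.56, edgeR adjusted p 0.425), and Prodh, at -2.06 (SE 0.60, edgeR adjusted p 0.472). For Cps1 the difference was 1.27 (SE 0.33, edgeR adjusted p 0.442), for Got1 1.62, for Tat 1.10, for Prodh2 -1.68, for Hgd -1.65 and for Gldc -0.64. Without Yap control 2 the differences were -1.25 for Prodh, -1.01 for Prodh2, -1.16 for Hgd, 1.62 for Tat, 2.55 for Aass and 1.22 for Cps1, and no member or other gene passed (0%). Without the library labelled Ctgf knockout 2 they were -1.69, -1.41, -1.14, 1.18, 2.04 and 1.36, and again none passed. Without Yap control 1, Cps1, Haao, Prodh and Prodh2 passed, beside 14.5% of all genes, and with both doubtful libraries left out Ass1 did, beside 1.00%. DESeq2 called 2 members, Aass (adjusted p 0.00466) and Cps1 (adjusted p 0.00288), beside 85 genes higher (0.632%) and 57 lower (0.424%). So a higher level of these genes in the Yap1 knockouts was not shown by edgeR to be particular to that line.

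Set against each other, the control groups differed in 1 of these genes by edgeR. They differ in the mouse line, the floxed gene and the AAV8-GFP virus, which cannot be told apart here. The labels name a TruSeq and a KAPA kit without assigning them, so whether the kit differed too is not given, and the libraries are also those of the other comparisons. Markers of other cells moved between these groups. The 11 stellate cell markers, with 10 positive, summed to 1402 and 1079 CPM in the Yap controls against 533 and 533, Acta2 among them at 75.0 and 72.0 CPM against 2.87 and 3.53 CPM. The 12 pericentral hepatocyte markers, with 5 positive, summed to 542 and 1459 CPM against 1868 and 1844. Most of the sums in the Ctgf controls was Cyp2e1, at 58.8 and 394 CPM against 840 and 769, and Aldh1a1, at 141 and 263 against 523 and 532. The part of these cells in the members' values between the control groups was not tested. Cth, cystathionine gamma-lyase, was the 1 member called in edgeR, beside 333 genes in all (2.38%), 178 genes higher (1.27%) and 155 lower (1.11%). It stood at 47.3 and 58.7 CPM in the Yap controls and 147 and 152 in the Ctgf controls, 2.82-fold lower (edgeR log2 fold change -1.50, SE 0.24, adjusted p 0.0332), and the knockouts lay at 56.3 and 60.7 CPM in the Yap1 line and 146 and 100.4 in the Ctgf line. The call was lost in a fit of the control libraries alone (adjusted p 0.093) and without either Yap1 knockout library or either Ctgf control library (adjusted p 0.108 to 0.303), while the log2 fold change stayed between -1.51 and -1.45. Kynu, 105 and 115 CPM in Ctgf controls, was lower in the Yap controls by the next smallest p (edgeR log2 fold change -0.997, adjusted p 0.0705), and Cps1 and Otc were lower too, at -0.67 and -1.38. Mat1a, at 1555 and 1470.2 CPM in Ctgf controls, was higher in the Yap controls by 1.40 (SE 0.39, edgeR adjusted p 0.0997), as was Arg1 by 0.90, Gpt by 0.99 and Gldc by 0.47. Bhmt, at 144 and 122 CPM in Ctgf controls, had the largest difference, -2.34 (SE 1.04, edgeR adjusted p 0.232), and it was named after its values were seen. Without Yap control 2 the differences were 0.69 for Mat1a, 0.32 for Gpt, 0.91 for Arg1, -0.89 for Kynu, -1.67 for Cth and -5.70 for Bhmt, and Bhmt, Cth and Nags passed, beside 7.07% of all genes. Without Yap control 1 they were 1.89, 1.46, 0.92, -1.09, -1.33 and -1.39, and 10 members passed, Mat1a, Gpt, Arg1, Kynu and Cth among them, beside 25.6% of all genes. With both doubtful libraries left out 16 passed, beside 28.4%. Of the 38 genes, 7 lay higher without overlap (18.4%, against 26.1% of all genes) and 8 lower (21.1%, against 27.0%). DESeq2 called 5 members, Arg1 and Mat1a higher and Cps1, Cth and Kynu lower, beside 817 genes higher (5.84%) and 710 lower (5.07%).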

How the data were processed

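RNA was extracted with Trizol from frozen liver, per the labels' protocols, which name both an Illumina TruSeq and a KAPA mRNA HyperPrep kit without assigning libraries to them. The authors deposited whole-number read counts per gene symbol, 1 column a library. HTSeq 0.6.1, STAR 2.6.0a, bcl2fastq 2.20.0.422 and the GRCm38 build are named per the submitters' processing notes; with annotation and strand setting not given in the sources used here, values of the exon-overlapping members Gstz1, Sds, Gls2, Aldh4a1 and Bckdha are uncertain. Totals were 26904021 to 33488609, the number of columns not used was 0, and no pair of libraries held equal counts for over 1.46% of the genes tested.

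Counts were tested with edgeR 4.0.16 (R 4.3.3; TMM, filterByExpr, quasi-likelihood F test, 4 residual degrees of freedom) in 1 fit of 4 groups, with Benjamini-Hochberg adjustment over 13999 genes and a threshold of 0.05. The procedure was run on simulated counts whose spread was the same in every group and smaller than in these libraries. That run therefore does not show how well the test performs here. DESeq2 1.42.0, limma 3.58.1 (voom), other scalings and filters, a replicate block and left-out libraries were alternatives; leaving out both doubtful libraries was added after the data were seen. Members and lists were chosen with earlier results of these data known. Full values are given for called members, the 4 smallest p in each direction, members over 1 in log2 without overlap and related pairs; for other pathway genes, the 2 smallest p in each direction, of which 1 gene is not reported here. Positions are from GENCODE M21 and promoters from RefSeq GRCm38.p6.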

Additional observations from a re-analysis of the deposited data

How the results depend on the processing

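The directions of the genes named by the rule kept their sign in all but 3 of 730 repeats over 41 gene results. That stability was partly built in, since the rule picks small p-values and groups without overlap in these same libraries. Over all 38 members, the sign was opposite for 16 between the Yap controls taken singly and for 24 between the Ctgf knockout libraries taken singly. Of the 730 repeats, 56 brought a call that the main test lacked and 5 lost one, all 5 being Cth between the controls. The 3 reversals were small and all in the Ctgf comparison: with 1 replicate left out, Kynu ran from -0.50 to 0.085 and Aass from -0.80 to 0.094, each turned by a single Ctgf knockout library, and Aass was 0.094 without both doubtful libraries (Yap control 2 and the library labelled Ctgf knockout 2). In the Yap1 comparison the genes called numbered 4, against 509 with DESeq2, 37 with no low-count filter, 0 in a fit of its own libraries, 938 without both doubtful libraries and 0 to 3728 with 1 replicate left out. Members called numbered 0, against 10 with DESeq2, 13 without both doubtful libraries and 0 to 17 with 1 replicate left out. The members' median was -0.28, against 0.32 without both and -0.43 to 0.32 with 1 replicate left out. In the Ctgf comparison 0 genes were called, against 4 with DESeq2 and 1 with limma-voom, no member was called under any alternative, and the members' median of 0.14 became -0.13 without both and -0.13 to 0.34 with 1 replicate left out. For the difference of the effects, 0 genes became 142 with DESeq2, 2 with no low-count filter, 143 without both and 0 to 2092 with 1 replicate left out; 0 members became 2, 1 (Ass1) without both and 0 to 4 with 1 replicate left out, and the members' median of -0.31 became 0.37 and -0.58 to 0.25. Between the controls, 333 genes became 1527 with DESeq2, 0 in a fit of their own libraries, 4056 without both and 0 to 3699 with 1 replicate left out; 1 member became 5 with DESeq2, 0 in their own fit, 16 without both and 0 to 10 with 1 replicate left out, and the members' median of 0.04 became -0.31 and -0.31 to 0.19. Fits of a comparison's own libraries and fits with left-out libraries both hold fewer samples than the main fit, and not the same number. The cause of these shifts was not tested.

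The labels share replicate numbers between groups. In the Yap line the sample titles also name each control as that of a numbered Yap knockout, but the titles of the knockouts carry no such number. Libraries with the same replicate number did not deviate together (correlations of 0.016 in the Yap line and 0.047 in the Ctgf line over 13999 genes). With the replicate number as a block, the genes called were 3 in the Yap1 comparison, 0 in the Ctgf comparison, 0 for the difference and 219 between the controls, with the members called at 0, 0, 0 and 1.

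With 2 libraries a group, 1 library can decide a call. The sign of the members' median turned on which Yap control was kept, at -0.43 without Yap control 1 and 0.32 without Yap control 2. In the Ctgf comparison it turned on the knockout library kept, at 0.34 without Ctgf knockout 1 and -0.13 without the library labelled Ctgf knockout 2. Depth was not far apart between libraries and members were well counted, so the spread between libraries, not counting error, sets the precision.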

Other observations

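Among 10 listed regulators of amino acid catabolism, 1 higher and 2 lower reached an unadjusted p below 0.05 in the Yap1 comparison (30%, against 6.64% of all genes higher and 7.14% lower), and none passed edgeR's adjusted threshold. Gcgr, the glucagon receptor, stood at 103 and 201 CPM in the Yap controls and 80.8 and 66.2 in the Yap1 knockouts (edgeR log2 fold change -1.05, SE 0.31, adjusted p 0.233). Cebpa, a C/EBP transcription factor of hepatocytes, stood at 169.7 and 189 CPM in controls and 108 and 75.5 in knockouts (edgeR log2 fold change -0.96, SE 0.23, adjusted p 0.173, DESeq2 adjusted p 0.011). Both lay lower without overlap, while Ppargc1a lay higher without overlap (edgeR log2 fold change 1.00, SE 0.22, adjusted p 0.153, DESeq2 adjusted p 0.00834). Nr3c1, the glucocorticoid receptor, stood at 99.6 and 56.4 CPM in the Yap controls and 122 and 101 in the Yap1 knockouts, and Foxo1, a transcription factor held back by insulin, at 68.2 and 74.1 CPM in controls and 94.2 and 93.8 in knockouts, with the knockouts above the controls for each. Hnf4a, at 686 and 677 CPM in controls and 614 and 628 in knockouts, and Klf15, at 51.5 and 49.7 CPM in controls and 37.1 and 49.4 in knockouts, lay slightly lower, and Cebpb, Creb3l3 and Atf4 overlapped. That makes 3 higher and 4 lower without overlap, where 23.6% of all genes lay higher and 20.8% lower.

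In the Ctgf comparison the regulators that reached an unadjusted p below 0.05 in the Yap1 comparison lay on the other side of their controls. Ppargc1a stood at 34.1 and 44.98 CPM in Ctgf controls and 19.4 and 23.9 in the Ctgf knockouts, lower in both. Gcgr stood at 98.0 and 95.9 CPM in controls and 117 and 126 in knockouts and Cebpa at 127 and 139 CPM in controls and 165 and 189 in knockouts, higher in both knockouts. Their log2 fold changes were -0.87 (SE 0.22), 0.32 (SE 0.31) and 0.41 (SE 0.23). The difference between the Yap1 and Ctgf effects was 1.87 (SE 0.31, edgeR adjusted p 0.271) for Ppargc1a, -1.37 (SE 0.43, edgeR adjusted p 0.502) for Gcgr and -1.37 (SE 0.32, edgeR adjusted p 0.439) for Cebpa, so none passed. These genes were singled out after their values were seen.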
